A study of Arabidopsis thaliana with 9 samples.

Results

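The genes described here are the 39 plastid-encoded gene models for gene expression and housekeeping, chosen by identifier from the 33602 gene models counted in each library. They comprise 4 core subunits of the plastid RNA polymerase, 15 small-subunit and 11 large-subunit ribosomal protein models, and 9 other models: matK, accD, cemA, clpP, ccsA and 2 copies each of ycf1 and ycf2. RNA was sequenced from the aerial organs of Arabidopsis thaliana plants of the Col0 ecotype, 21 days old, grown untreated on soil in short days. The 3 genotypes had 3 libraries each of CUC2gm-4, of cuc2-3 and of WT. The labels do not say whether a library came from a plant or a pool, so p-values speak for the spread among the libraries and no further.

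The chloroplast keeps a small genome of its own. Its genes are read by a bacterial-type RNA polymerase, whose core is plastid-encoded and whose sigma factors and associated proteins come from the nucleus, and by phage-type polymerases encoded entirely in the nucleus. The messages are translated on bacterial-type ribosomes whose proteins are divided between the plastid and nuclear genomes, and many plastid genes are transcribed together as clusters.

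CUC2, the transcription factor gene named in the genotypes, had 779, 656 and 1062 counts in the libraries labelled CUC2gm-4, 38, 11 and 23 counts in cuc2-3, and 13, 53 and 55 counts in WT. The series describes both mutants as knock outs, and the libraries labelled CUC2gm-4 had the highest CUC2 counts. Libraries held 17361433 to 27734410 counts, of which plastid genes took 0.110 to 0.398%; the libraries were made from RNA selected for messenger RNA on oligo-dT beads. The green-tissue markers RBCS1A, CAB2, LHCB3, RCA and PSAF were all between 1100 and 19700 normalised CPM, the root markers COBL9, EXPA7 and TIP2;3 did not exceed 0.123, CASP1 1.06 and WOX5 3.17, and the flower markers AP3 and PI did not exceed 0.497. Normalised CPM (CPM being counts scaled by the library total) carry the TMM factors, which adjust for RNA composition. One cuc2-3 library, replicate 3, stood apart: its mitochondrial genes summed to 219.5 normalised CPM, against 27.93 and 23.67 in the other cuc2-3 libraries.

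The highest and lowest members can be shown by their coding sequences. As the RNA was selected on oligo-dT beads, the longest A run of each is marked. It is given in capitals within 48 bases of the coding strand, from RefSeq TAIR10.1. Only coding sequence was examined, and whether these runs affect capture was not tested. The first 3 are the members with the highest level per kb, the next 2 are the lowest single-copy members, and rpoA has the longest run of any member.
rpl16: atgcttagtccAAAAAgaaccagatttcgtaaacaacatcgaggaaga
rpl32: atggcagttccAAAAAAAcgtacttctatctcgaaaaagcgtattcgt
rpl14: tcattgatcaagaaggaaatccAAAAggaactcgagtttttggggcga
ccsA: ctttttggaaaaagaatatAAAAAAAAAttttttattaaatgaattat
rps16: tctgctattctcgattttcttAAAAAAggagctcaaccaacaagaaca
rpoA: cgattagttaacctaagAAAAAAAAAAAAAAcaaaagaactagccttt
The run was 5 bases in rpl16, 7 in rpl32 and 4 in rpl14, against 9 in ccsA, 6 in rps16 and 14 in rpoA. Over the 26 single-copy members with any count, Spearman's rho between the longest A run and the mean level per kb was -0.254, and between the A content of the coding sequence and the level it was 0.513. Between model length and the level rho was -0.422, and the part of length in the other values was not tested. These are descriptions across genes, which share libraries and gene clusters and are not independent replicates. The coding sequences of the 32 different member genes held 30.8 to 40.4% A, and those of 46 plastid photosynthesis genes held 20.7 to 36.0%.

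Of the 39 members, 27 were tested, having 3 or more libraries at a CPM of 1 or above, 20 of them at that minimum in all 9 libraries. The other 12 were 4 members below the minimum and 8 with no count in any library, for which 3 counts correspond to 0.108 to 0.173 CPM. A member that passed only through the genotype where it was high had to differ, so counts over the 27 do not speak for the 39.

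The 3 highest levels belonged to ribosomal protein genes. In normalised CPM per kb of gene model, rpl16 (ATCG00790), a protein of the large subunit encoded on the minus strand between positions 81189 and 82652 of the chloroplast genome in TAIR10.1, had 503, 331 and 445 in CUC2gm-4, 341, 704 and 333 in cuc2-3, and 285, 260 and 263 in WT. The large-subunit gene rpl32 (ATCG01020), at 113449 to 113607 on the plus strand, had 389, 449 and 202 per kb in CUC2gm-4, 313, 242 and 146 in cuc2-3, and 287, 329 and 244 in WT. The third was rpl14 (ATCG00780), also of the large subunit, with 231, 167 and 191 per kb in CUC2gm-4, 156, 332 and 145 in cuc2-3, and 135, 121 and 115 in WT. The libraries of rpl16 and rpl32 overlapped in CUC2gm-4 and WT, while in cuc2-3 every rpl16 library was above every rpl32 library. Every WT library of rpl14 was below every WT library of both. Mean levels of the polymerase genes over all 9 libraries were 32.8 per kb for rpoA, 4.62 for rpoB, 3.28 for rpoC1 and 2.04 for rpoC2. Ribosomal protein genes ranged widely and were found on either side of these, with means of 7.26 per kb for rps18, 3.56 for rpl20 and 2.42 for rps2.

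**Figure D1:**
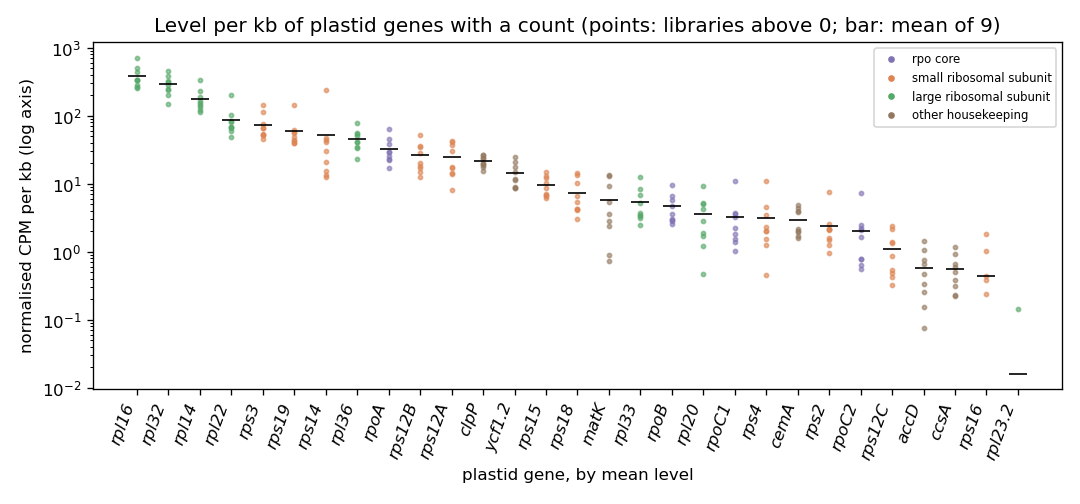
Normalised CPM per kb (log axis) of 29 members with a count in some library, ordered by their mean over 9 libraries; points are libraries above 0 and bars are means. The means run from 385 per kb for rpl16 to 0.0161 for rpl23.2.

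At the low end, ccsA (ATCG01040), which encodes a factor of cytochrome c assembly, had 29, 12 and 16 counts in CUC2gm-4, 11, 4 and 26 in cuc2-3, and 5, 4 and 9 in WT. The small-subunit gene rps16 (ATCG00050) had 11, 5 and 0 counts in CUC2gm-4, 2, 1 and 3 in cuc2-3, and none in WT. One copy of rpl23 (ATCG01300) had a single count, in CUC2gm-4 replicate 3. These counts are too few to compare genotypes.

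The members with 2 models lie in the inverted repeat, and their counts reflect how reads were assigned. Reads that aligned equally well to more than 1 place were removed by the authors, and the RefSeq copies of rps7 (468 coding bases), rpl2 (825), rpl23 (282) and ycf2 (6885) are identical. Both copies of rps7, rpl2 and ycf2 and the remaining copy of rpl23 had no count, so their expression is not measured here. The short model of ycf1 (1032 coding bases) also had none. It shares its first 1030 bases with the long model (5361), which had counts. Counts per model do not show where on the long model its reads fell. The model of rps12, a small-subunit gene joined by trans-splicing, is split: rps12A covers the first exon, and 2 models of 258 bases cover exons 2 and 3 of the identical copies. Of these, rps12B had 59 to 330 counts and rps12C 2 to 15 counts per library, so the values of rps12B are uncertain.

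Summed over the 39 models, the members had 850.7, 593.9 and 704.8 normalised CPM in CUC2gm-4, 523.9, 1037 and 672.4 in cuc2-3, and 456.1, 423.4 and 387.2 in WT. The means were 716 ± 129 in CUC2gm-4, 744 ± 264 in cuc2-3 and 422 ± 34.5 in WT (SD, n = 3 each). Every CUC2gm-4 and every cuc2-3 library was above every WT library, and the CUC2gm-4 and cuc2-3 libraries overlapped. The tissue was sequenced in bulk, so fewer cells of a type and less RNA per cell cannot be told apart.

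Other organelle transcripts were higher in the same libraries. The 47 plastid photosynthesis genes summed to 1570 ± 239 normalised CPM in CUC2gm-4, 1950 ± 1100 in cuc2-3 and 765 ± 189 in WT, and the 146 mitochondrial genes to 52.1 ± 6.57 in CUC2gm-4, 90.4 ± 112 in cuc2-3 and 17.1 ± 2.76 in WT (SD, n = 3 each). Their part in the members' differences was not tested. As a share of plastid protein-coding counts, the members took 31.6, 29.9 and 32.3% in CUC2gm-4, 29.9, 42.6 and 17.3% in cuc2-3, and 31.7, 38.5 and 37.8% in WT. Exact Clopper-Pearson 95% intervals, for counting error only, ran from 17.1 to 17.5% for the lowest share and from 42.1 to 43.1% for the highest. The shares overlapped between all genotypes, and cuc2-3 held both the highest and the lowest.

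**Figure D2:**
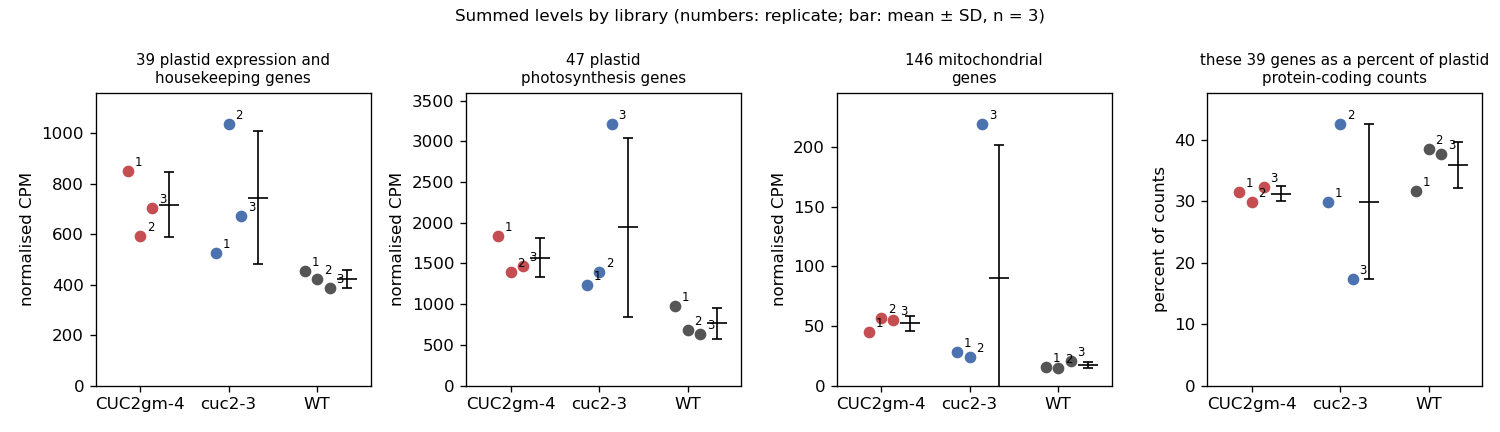
Summed normalised CPM of the 39 members, of 47 plastid photosynthesis genes and of 146 mitochondrial genes, and the members' percent of plastid protein-coding counts, by library (numbers are replicates; bars are mean ± SD, n = 3). The members' sums lie above 500 in every CUC2gm-4 and cuc2-3 library and at 387.2 to 456.1 in WT.

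In CUC2gm-4 against WT, the tested members had higher values in CUC2gm-4, and the intron maturase gene matK had the largest log2 fold change among them. The rise was not particular to the members or to matK. Of the 37 tested plastid photosynthesis genes, 33 had libraries that did not overlap WT, all higher. Their log2 fold changes reached 3.31, above that of matK. No member passed the edgeR quasi-likelihood test at an adjusted p of 0.05, against 0.0164% of all 18291 genes, either way. With replicate number as a block, 1 member passed, matK, against 0.191% of all genes. All 27 tested members had a positive log2 fold change, with a median of 0.94, against -0.0025 over all genes. With counts scaled by the plastid protein-coding total, 13 of 27 were positive. That total includes the members themselves, and the scaling moved the median of all genes to -0.957. By unadjusted p, 17 members fell under 0.05, all higher, against 3.06% of all genes higher and 3.42% lower. With the block 18 did, against 2000 of 18291 genes in either direction. DESeq2 called 5 members, against 0.443% of all genes. The CUC2gm-4 and WT libraries did not overlap for 21 members, all higher in CUC2gm-4, against 5.87% of all genes. The 21 include accD, rpl33, rpl20 and rps4, whose separation the filter favoured. They reached a CPM of 1 in 3, 4, 4 and 6 libraries, none of them WT.

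The maturase gene matK (ATCG00040), whose product helps to splice plastid group II introns, lies at 2056 to 3570 on the minus strand. Its model in the files (1581 bases) is 66 bases longer than the RefSeq coding sequence (1515). The position of the extra bases is not given. Extending the RefSeq sequence upstream by 66 bases reaches an ATG in the same frame, which would match this length. It had 359, 423 and 500 counts in CUC2gm-4, 122, 80 and 239 in cuc2-3, and 23, 21 and 90 in WT. In normalised CPM this was 14.4, 21.1 and 20.4 in CUC2gm-4, 5.59, 4.51 and 8.48 in cuc2-3, and 1.43, 1.17 and 3.80 in WT. The 3 genotypes did not overlap: every CUC2gm-4 library was above every cuc2-3 library, and every cuc2-3 library above every WT library.

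For matK, the log2 fold change of CUC2gm-4 against WT was 3.09 (SE 0.42, edgeR adjusted p = 0.0584), the smallest p of any member in any of the 3 comparisons. With the replicate block it was 3.21 (SE 0.30, edgeR adjusted p = 0.00148). It also passed with DESeq2 (adjusted p = 1.27e-10). Leaving out WT replicate 3 gave 3.83 (edgeR adjusted p = 0.00231) and leaving out cuc2-3 replicate 3 gave 3.09 (adjusted p = 0.0377); over all alternatives the adjusted p ran from 1.27e-10 to 0.313. Scaled by plastid protein-coding counts it was 2.12 (edgeR adjusted p = 0.000989), but that scaling called 9484 of all 18291 genes, so this adjusted p is a weak criterion. As a share of the members' own counts, matK took 1.69, 3.55 and 2.90% in CUC2gm-4, 1.07, 0.435 and 1.26% in cuc2-3, and 0.314, 0.276 and 0.982% in WT, and the CUC2gm-4 libraries were again above all others.

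A further 3 members had the next smallest p in CUC2gm-4 against WT. The exon 2 and 3 model rps12B (ATCG01230) had 9.39, 8.91 and 13.5 normalised CPM in CUC2gm-4, 5.27, 7.33 and 4.72 in cuc2-3, and 4.42, 3.29 and 3.85 in WT, and every CUC2gm-4 library exceeded all others. Its log2 fold change of CUC2gm-4 against WT was 1.46 (SE 0.25, edgeR adjusted p = 0.221). The long ycf1 model (ycf1.2, ATCG01130), which encodes a protein of the inner-envelope import complex, had 132, 79.4 and 112 in CUC2gm-4, 60.2, 95.2 and 62.6 in cuc2-3, and 47, 48.6 and 45.6 normalised CPM in WT. Both mutants were above WT in every library and overlapped each other; the log2 fold change of CUC2gm-4 against WT was 1.2 (SE 0.23, edgeR adjusted p = 0.254). The small-subunit gene rps18 (ATCG00650) had 4.33, 3.09 and 4.17 in CUC2gm-4, 1.28, 1.24 and 2.02 in cuc2-3, and 0.934, 1.28 and 1.65 normalised CPM in WT. Here CUC2gm-4 was above both others, which overlapped, with a log2 fold change against WT of 1.57 (SE 0.33, edgeR adjusted p = 0.414). DESeq2 called each of these 3 members, with adjusted p = 0.000346 for rps12B, 0.000923 for ycf1.2 and 0.0119 for rps18. With the replicate block the edgeR adjusted p was 0.0559 for rps12B, 0.0703 for ycf1.2 and 0.0703 for rps18.

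**Figure D3:**
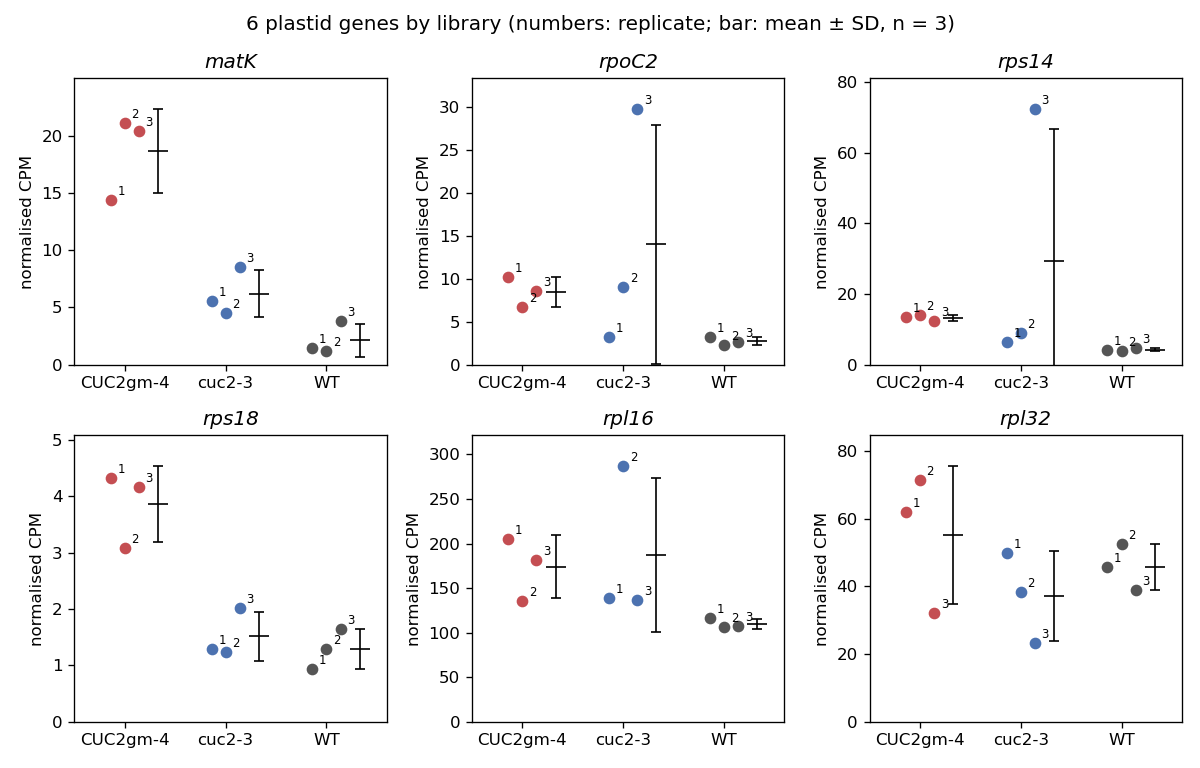
Normalised CPM of matK, rpoC2, rps14, rps18, rpl16 and rpl32 by library (numbers are replicates; bars are mean ± SD, n = 3). The matK libraries separate by genotype, cuc2-3 replicate 3 is far above the other libraries for rps14 (72.4) and rpoC2 (29.8), cuc2-3 replicate 2 is highest for rpl16 (287), and rpl32 overlaps between genotypes.

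In cuc2-3 against WT, which shares its WT libraries with the comparison above, rps14, rpoC2, rps4 and rpoC1 had the largest log2 fold changes, and a single library set much of their size. No member passed the edgeR test, against 0.0219% of all genes, while 20 members had an unadjusted p under 0.05, all higher in cuc2-3, against 1.32% of genes; DESeq2 called 1 member, rpoC2 (adjusted p = 0.0396), against 0.0765% of genes, and the replicate block called none. The log2 fold change was positive for 26 of 27 members, with a median of 0.92, against -0.0077 over all genes; under the plastid scaling, with all genes at -1.07, it was positive for 9 of 27. The cuc2-3 and WT libraries did not overlap for 17 members, all higher in cuc2-3, against 2.87% of genes higher and 2.65% lower. Among these, the filter favoured the separation of rps4, which reached a CPM of 1 in no WT library.

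The polymerase subunit gene rpoC2 (ATCG00170), encoding the beta'' subunit, had 3.21, 9.07 and 29.8 normalised CPM in cuc2-3, against 3.24, 2.28 and 2.66 in WT, and the lowest cuc2-3 library fell inside the WT range. Its log2 fold change was 2.37 (SE 0.63, edgeR adjusted p = 1) with all libraries and 1.16 without cuc2-3 replicate 3. Next to it on the same strand, rpoC1 (ATCG00180), encoding the beta' subunit, had 3.71, 7.33 and 22.5 in cuc2-3, against 3.18, 2.84 and 2.07 normalised CPM in WT. All cuc2-3 libraries were above WT, and the log2 fold change was 2.07 (SE 0.55, edgeR adjusted p = 1), or 1.04 without cuc2-3 replicate 3. The first gene of the cluster, rpoB for the beta subunit, had 9.68, 20.9 and 31.1 in cuc2-3, against 11.7, 8.97 and 8.11 normalised CPM in WT, and overlapped. In CUC2gm-4 against WT the log2 fold changes were 1.64 for rpoC2, 1.22 for rpoC1 and 0.60 for rpoB (edgeR adjusted p = 0.756, 0.771 and 0.820), and the CUC2gm-4 and WT libraries overlapped for rpoB.

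The small-subunit gene rps14 (ATCG00330) lies 134 bases beyond the end of psaB on the same strand, in a cluster with the photosystem I genes psaA and psaB. It had 6.42, 9.07 and 72.4 normalised CPM in cuc2-3, against 4.05, 3.84 and 4.65 in WT, and all cuc2-3 libraries were above WT. Its log2 fold change was 2.81 (SE 0.76, edgeR adjusted p = 1) with all libraries and 0.88 without cuc2-3 replicate 3. In that library psaB stood at 396 normalised CPM, against 18.0 and 28.3 in the other cuc2-3 libraries, and rbcL, the Rubisco large-subunit gene, which is not in this cluster, stood at 858, against 106 and 73.0. Replicate 3 of cuc2-3 was 9.35 times the mean of the other cuc2-3 libraries for rps14, 4.85 times for rpoC2, 17.1 times for psaB and 9.58 times for rbcL. The high values of that library were thus not limited to the rps14 cluster: its photosynthesis genes summed to 3210 normalised CPM, against 1229 and 1397 in the other cuc2-3 libraries. In CUC2gm-4, rps14 had 13.4, 14.1 and 12.3 normalised CPM, also above every WT library, with a log2 fold change of 1.66 (SE 0.75, edgeR adjusted p = 0.766), and an adjusted p = 0.0295 without cuc2-3 replicate 3.

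A further 7 tested members lie near each other on the minus strand, in a cluster of mostly ribosomal protein genes: rps19 and rps3 of the small subunit, rpl22, rpl16, rpl14 and rpl36 of the large subunit, and rpoA, the alpha subunit of the polymerase. They were high in the same library: cuc2-3 replicate 2 was the highest of all 9 libraries for each of the 7 genes, at 1.86 to 2.65 times the mean of the other cuc2-3 libraries. Their sum was 483.8, 310.3 and 394.2 normalised CPM in CUC2gm-4, 319.9, 711.5 and 328.7 in cuc2-3, and 270.9, 252.7 and 235.0 in WT, so every CUC2gm-4 and cuc2-3 library was above every WT library. These 7 genes took 68.6% of the members' counts in cuc2-3 replicate 2, against 61.1 and 48.9% in cuc2-3 replicates 1 and 3. For rpl16 the log2 fold change of cuc2-3 against WT was 0.77 (SE 0.28, edgeR adjusted p = 1), and 0.33 without cuc2-3 replicate 2; for rpl14 it was 0.77 (SE 0.29), and 0.29 without that library. For CUC2gm-4 against WT the values were 0.66 (SE 0.28) for rpl16 and 0.67 (SE 0.29) for rpl14 (edgeR adjusted p = 0.756 and 0.757).

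**Figure D4:**
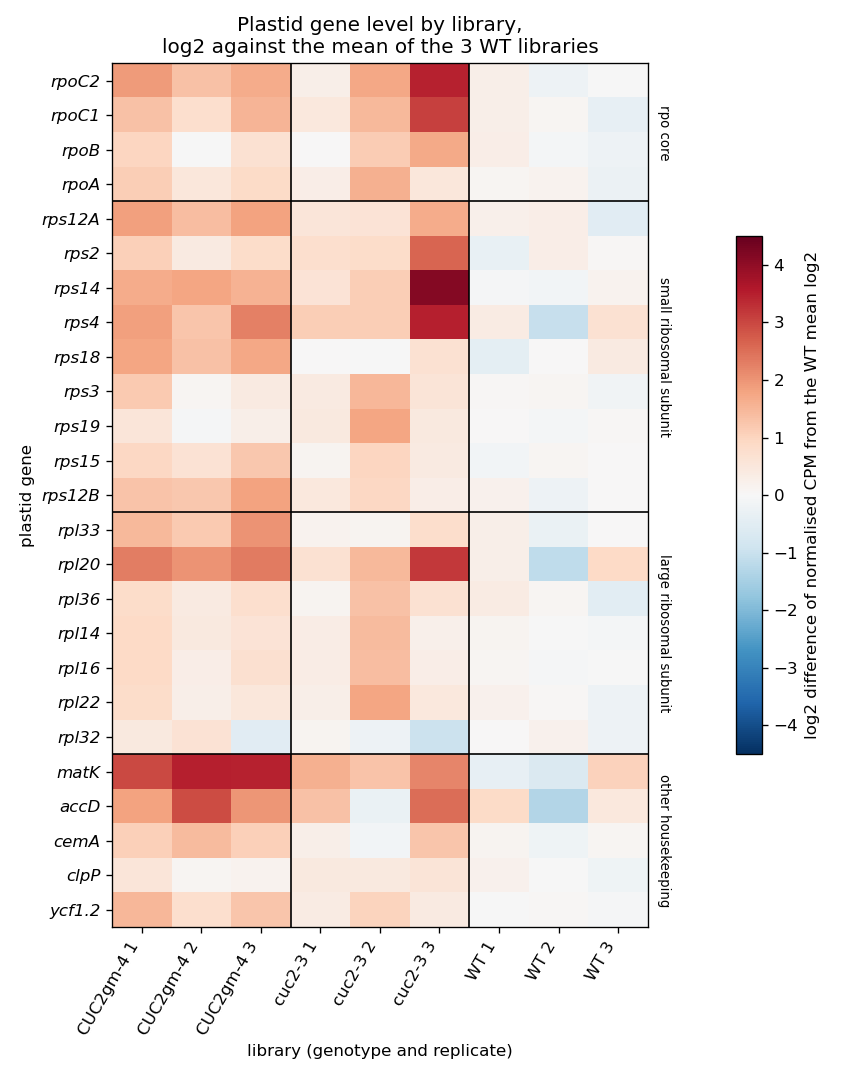
Heat map of log2 normalised CPM of 25 tested members in each library, less the mean of the log2 values of the 3 WT libraries, with genotypes side by side and members grouped by role. Red marks values above the WT mean: rps19, rpl22, rpl16 and rpoA are highest in cuc2-3 replicate 2, rps14, rps4 and rpoC2 in cuc2-3 replicate 3, and matK in CUC2gm-4.

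Among the 27 members, the highest library was cuc2-3 replicate 2 for 9, cuc2-3 replicate 3 for 8, and a CUC2gm-4 library for 10. It was never a WT library. The same tally was not made over all genes, so it describes the members and shows nothing particular to them. The 8 highest in cuc2-3 replicate 3 included rps4 and rps2 of the small subunit, rpl20 of the large subunit and clpP, the proteolytic subunit of the stromal Clp protease. For clpP the libraries were close: 15.4, 11.1 and 11.7 normalised CPM in CUC2gm-4, 14.1, 14.3 and 15.6 in cuc2-3, and 12, 10.4 and 9.13 in WT. The carboxyltransferase gene accD, whose product serves fatty acid synthesis, was near the detection minimum, at 0.963, 2.09 and 1.1 in CUC2gm-4, 0.688, 0.225 and 1.56 in cuc2-3, and 0.498, 0.111 and 0.380 normalised CPM in WT. The envelope protein gene cemA had 2.69, 3.38 and 2.70 in CUC2gm-4, 1.51, 1.18 and 3.05 in cuc2-3, and 1.37, 1.11 and 1.35 normalised CPM in WT. Both accD and cemA had every CUC2gm-4 library above every WT library, and their cuc2-3 libraries overlapped WT. For accD the filter favoured this separation, as it reached a CPM of 1 in 3 libraries, none of them WT.

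The large-subunit gene rpl32 was the only tested member with a negative log2 fold change in cuc2-3 against WT, and it was positive in CUC2gm-4 against WT. It had 61.9, 71.3 and 32.1 normalised CPM in CUC2gm-4, 49.8, 38.4 and 23.3 in cuc2-3, and 45.7, 52.4 and 38.8 in WT, and all genotypes overlapped. The log2 fold change was 0.27 (SE 0.32, edgeR adjusted p = 0.912) in CUC2gm-4 against WT and -0.30 (SE 0.32, edgeR adjusted p = 1) in cuc2-3 against WT. Scaled by plastid protein-coding counts, rpl32 was lower in both mutants, at -0.67 in CUC2gm-4 against WT (edgeR adjusted p = 0.106) and -1.23 in cuc2-3 against WT (edgeR adjusted p = 0.0174). That scaling called 9484 of all 18291 genes in CUC2gm-4 against WT and 14624 in cuc2-3 against WT. An adjusted p under it is therefore a weak criterion. Negative values under it were also not particular to rpl32, as only 13 of 27 members were positive in CUC2gm-4 against WT and 9 in cuc2-3 against WT.

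The comparison of CUC2gm-4 against cuc2-3 asks where the mutants differ, and uses the same cuc2-3 and CUC2gm-4 libraries as the comparisons with WT. No member passed the edgeR test, against 0.0164% of all genes, nor with the replicate block (0.0383%); 6 had an unadjusted p under 0.05, 5 of them higher in CUC2gm-4 (1.55% of genes), and DESeq2 called matK (adjusted p = 0.0414), against 0.137% of genes. Positive values were found for 11 of 27 members, with a median of -0.11, for 12 with the replicate block and for 13 under the plastid scaling. The libraries did not overlap for 4 members, all higher in CUC2gm-4, against 4.82% of all genes higher and 5.19% lower: matK, rps18, rps12B and rpl33. Their log2 fold changes were 1.58 (SE 0.38) for matK, 1.34 (SE 0.32) for rps18, 0.88 (SE 0.24) for rps12B and 1.18 (SE 0.36) for rpl33, each with an edgeR adjusted p = 1. The large-subunit gene rpl33 (ATCG00640), which lies 228 bases from rps18 on the same strand, had 1.69, 1.39 and 2.49 normalised CPM in CUC2gm-4, 0.688, 0.676 and 1.06 in cuc2-3, and 0.748, 0.501 and 0.634 in WT. Both rpl33 and rps18 were thus above cuc2-3 and WT in every CUC2gm-4 library, while their cuc2-3 and WT libraries overlapped. For rpl33 the filter favoured this separation, as it reached a CPM of 1 in 4 libraries, none of them WT.

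**Figure D5:**
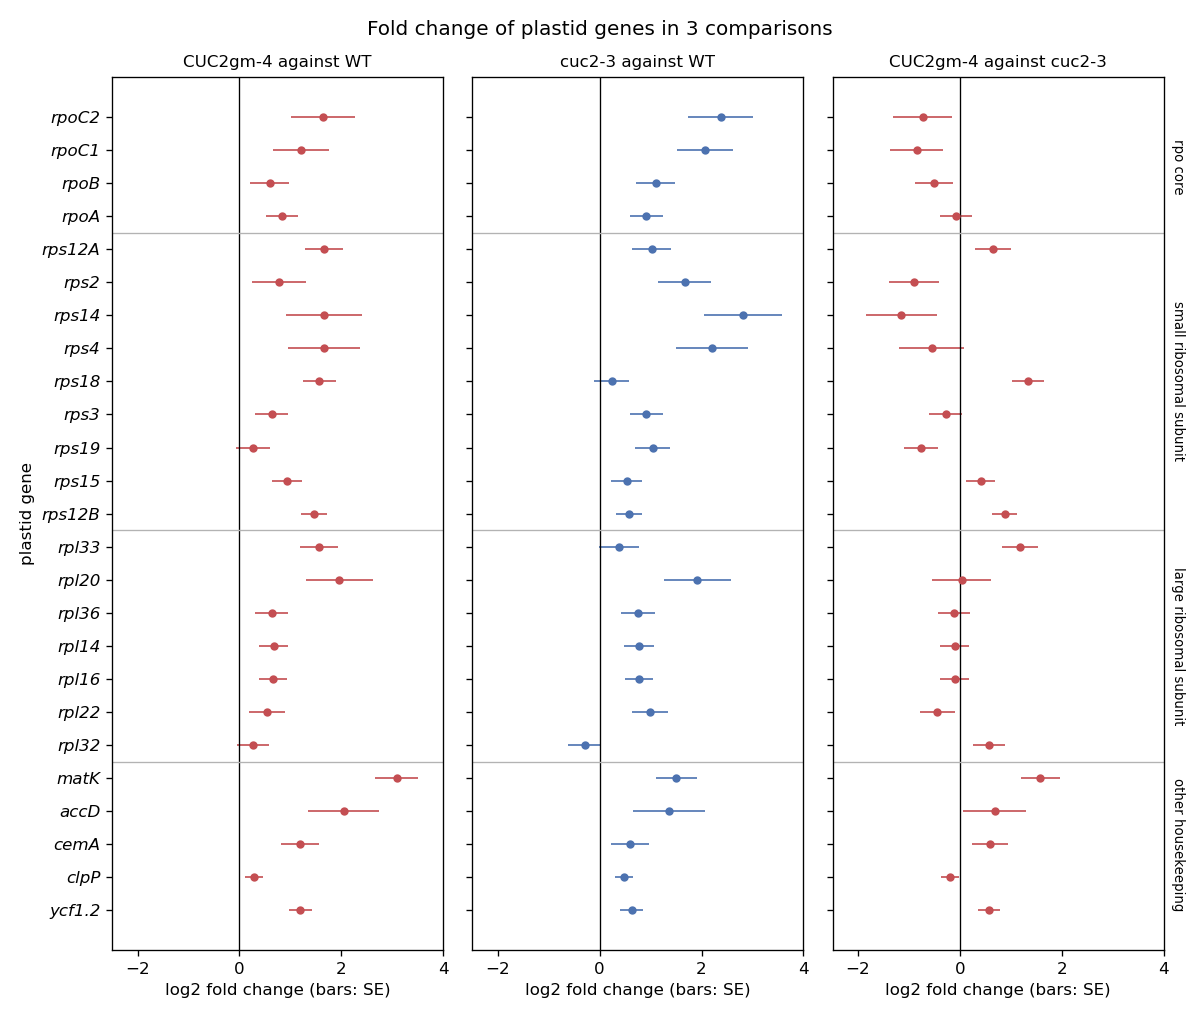
Log2 fold change with SE of 25 tested members in CUC2gm-4 against WT, cuc2-3 against WT and CUC2gm-4 against cuc2-3, grouped by role. Values against WT lie to the right of 0 except for rpl32 in cuc2-3 (when scaled by plastid protein-coding counts, 13 of the 27 tested were positive in CUC2gm-4 and 9 in cuc2-3), and matK reaches 3.09 in CUC2gm-4.

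By role, the medians of the log2 fold change in CUC2gm-4 against WT were 1.03 for the 4 polymerase genes, 0.94 for 11 small-subunit genes, 0.66 for 7 large-subunit genes and 1.2 for 5 other members. In cuc2-3 against WT they were 1.58, 1.02, 0.77 and 0.63 in the same order of roles, and rested in part on single libraries. Without cuc2-3 replicate 3, rpoC2 was 1.16 and rpoC1 1.04. Without cuc2-3 replicate 2, rpl16 was 0.33 and rpl14 0.29. The 37 tested plastid photosynthesis genes had medians of 2.18 in CUC2gm-4 against WT and 2.1 in cuc2-3 against WT. Of these, 0 passed the edgeR test, against 0.0164 and 0.0219% of all genes. With the replicate block 8 passed in CUC2gm-4 against WT, against 0.191% of all genes.

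Libraries with the same replicate number also varied together, and a test of replicate number in the fit with genotype called 0 of 27 members, against 4.36% of all genes. The smallest p among members belonged to rpl32 (edgeR adjusted p = 0.0564), rps4 (adjusted p = 0.0713) and matK (adjusted p = 0.150). By unadjusted p, 4 members were under 0.05, the fourth being rpl20, against 23.9% of all genes. In rps4, replicates 1 to 3 had 2.09, 1.39 and 2.78 normalised CPM in CUC2gm-4, 1.24, 1.24 and 6.60 in cuc2-3, and 0.748, 0.279 and 0.930 in WT, so replicate 3 was highest in every genotype. In rpl32, replicate 3 was the lowest in every genotype.

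None of the 96 tested nuclear genes, in 6 lists, that work with these plastid genes passed the edgeR test in any comparison. Only 0.0164 to 0.0219% of all genes passed, so this says little of these 96. The lists' median log2 fold changes in CUC2gm-4 against WT were all below 0. Of the 33 nuclear-encoded plastid ribosomal proteins, 0 had a positive log2 fold change in CUC2gm-4 against WT, against 9066 of 18291 genes. Their median was -0.32, and 13 had libraries that did not overlap, all lower in CUC2gm-4, against 5.74% of all genes. The gene with the smallest p, PRPL34, averaged 366 ± 42.8 normalised CPM in CUC2gm-4 and 531 ± 91.0 in WT (SD, n = 3 each), a log2 fold change of -0.54 (SE 0.17, edgeR adjusted p = 0.676). In cuc2-3 against WT the same list had a median of -0.17, with 5 of 33 positive and PRPL34 again first, at -0.29 (edgeR adjusted p = 1).

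The 12 polymerase-associated proteins had medians of -0.23 in CUC2gm-4 against WT and -0.05 in cuc2-3 against WT, and PAP7 stood at -0.34 in CUC2gm-4 against WT (SE 0.13, edgeR adjusted p = 0.756). For the 8 sigma factors and phage-type polymerases the medians were -0.06 in CUC2gm-4 against WT and 0.07 in cuc2-3 against WT. The sigma factor gene SIG2 averaged 90.8 ± 24.3 normalised CPM in CUC2gm-4 and 130 ± 38.0 in WT (edgeR adjusted p = 0.766), and SIG5 averaged 4.02 ± 2.01 in cuc2-3 and 2.09 ± 0.319 in WT (SD, n = 3 each, edgeR adjusted p = 1). Of the 13 nuclear Clp protease genes, partners of clpP, 1 was positive in CUC2gm-4 against WT, with CLPP5 at -0.40 (SE 0.15, edgeR adjusted p = 0.756). Plastid RNA-processing genes, 14 in all, had a median of -0.15 in CUC2gm-4 against WT, with CSP41A at -0.65 (SE 0.28, edgeR adjusted p = 0.766). The 16 partners of accD, ycf1, ycf2 and ccsA products had a median of -0.08 in the same comparison, with CCDA, a cytochrome c assembly factor, at -0.54 (SE 0.16, edgeR adjusted p = 0.647).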

How the data were processed

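Stranded single-end libraries of messenger RNA were read on an Ion Torrent Proton, per the labels' protocols. The deposited values are whole-number counts per gene model, made with sam2pkm, which removed reads with equally scored best placements, per the file headers; the other column used is the model length in bases, deposited with the counts by the authors. The submitters' processing notes name the build TAIR10. No source used here gives the aligner, the trimming or whether counting used strand, so overlapping and antisense transcripts may share reads.

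From the counts, edgeR 4.0.16 in R 4.3.3 fitted a quasi-likelihood model with genotype to all 9 libraries (TMM, 3 or more libraries at a CPM of 1 or above, 18291 genes), with Benjamini-Hochberg adjustment over all genes in each comparison at 0.05. DESeq2 1.42.0 was an alternative; others scaled by library totals, nuclear genes or plastid protein-coding genes, changed the filter, fitted only the 2 genotypes compared, added the replicate block or left out each library. The code was tested on simulated data. No libraries were duplicates (chi-square of 33.2 to 104 per gene within a genotype).

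Genotypes share replicate numbers, and same-numbered libraries deviated together (r of 0.200 to 0.609 in 9 pairs, against -0.493 to 0.226 in 18 other pairs), which meets the criterion for pairing; the labels do not say what a number marks. The fit reported has no block, as set in the design, and blocked values stand beside each result whose call at the adjusted threshold they change. Symbols of 38 of 39 members were checked by coding length against RefSeq plastid genes of TAIR10.1, which also gave positions and sequences; 3 of these lengths are held by several genes, and which copy an identifier means is not paired in the files. Named members were the 4 with the smallest p per comparison, the 3 highest and 3 lowest per kb, copies, the 3 with the smallest p for replicate number, and the first gene of each nuclear list. Members rpoA, rpoB, accD, cemA and clpP were added for their roles. Outside these rules, rps2, rpl20, rps19, rps3, rpl22 and rpl36 were named as examples of levels, of a cluster or of single libraries. Some members are counted in totals but are not reported here by name. The members and lists were chosen with earlier results of these data known. A count of 3 corresponds to 0.108 to 0.173 CPM; this floor and the intervals hold counting error alone.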

Additional observations from a re-analysis of the deposited data

How the results depend on the processing

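Under all alternatives the members' counts of calls against WT stayed at 5 or fewer. In CUC2gm-4 against WT, 0 members passed in the fit reported, 1 with no filter, with the plastid protein-coding scaling, with the replicate block, with block and plastid scaling together, and with only the 2 genotypes compared, and 5 with DESeq2; leaving out a library gave 0 to 2. The block without cuc2-3 replicate 3, chosen after seeing the data, gave 3. In cuc2-3 against WT, 2 passed with the plastid scaling, 1 with block and plastid scaling, and 1 with DESeq2; in CUC2gm-4 against cuc2-3, 1 passed with DESeq2. For replicate number, 7 members passed with no filter, and leaving out a library gave 0 to 2. The share of all genes was taken only in the fit reported, where it was 4.36%. These counts therefore cannot be set against all genes and show nothing particular to the members.

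All genes called in CUC2gm-4 against WT numbered 3, against 9 with no filter, 35 with the replicate block, 9484 with the plastid scaling, 1814 with block and plastid scaling, 6 with 2 genotypes, 81 with DESeq2, 67 with the block without cuc2-3 replicate 3, and 2 to 8 leaving out a library. In cuc2-3 against WT they numbered 4, against 14624 with the plastid scaling, 11754 with block and plastid scaling, 14 with DESeq2, and 3 to 4 leaving out a library. In CUC2gm-4 against cuc2-3 they numbered 3, against 7 with the replicate block, 25 with DESeq2, and 2 to 4 leaving out a library. The plastid scaling shifts nearly all nuclear genes by construction; the cause of the other changes was not tested. The members' share in CUC2gm-4 was 29.6% of all plastid counts, against 31.3% of protein-coding ones.

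Directions turned with the plastid scaling, given first without and then with the block. In cuc2-3 against WT the log2 fold change became -0.45 and -0.46 for rps12B, -0.44 and -0.48 for ycf1.2, -0.97 and -0.93 for rps18, -0.77 and -0.76 for rpl33, -0.28 and -0.35 for rpl16, and -0.27 and -0.37 for rpl14. In CUC2gm-4 against WT it became -0.31 and -0.30 for rpl16, -0.67 and -0.80 for rpl32, and -0.29 and -0.29 for rpl14. Leaving out a library, rps18 in cuc2-3 against WT ranged from -0.0425 (without cuc2-3 replicate 3) to 0.449. The replicate block changed no other member's call than that of matK in CUC2gm-4 against WT. Of the named members' other values, 484 kept direction and side of the threshold and 20 came to pass it. Members under about 3 counts in a library cannot be told from 0.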
